A study of Mus musculus with 9 samples.

Results

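Ly6a, Ly6c1, Ly6c2, Ly6e and Ly6i are 5 mouse genes for small Ly6 surface proteins, taken by gene symbol from a table of 34745 genes measured in 9 tumours. Each symbol stood on a single row, and all 5 genes passed the filter on low counts that left 14506 genes for testing. The set was selected on the measured values of Ly6c2, which had been seen to climb from the isotype tumours through the anti-PDL1 tumours to the BTZ+anti-PDL1 tumours of this same table. The values of Ly6c2 are therefore a description here and carry no test. The other 4 genes were picked as relatives of Ly6c2 and were tested in the fit over all genes.

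The tumours were grown from LLC (Lewis lung carcinoma), a transplantable mouse lung tumour line, under the skin of wild-type male C57BL/6 mice. The labels give a host age of 6 to 8 with no unit. Mice were assigned at random to 3 groups once tumours had reached about 100 mm3, and all agents were given into the peritoneum. The isotype group (3 tumours) received a control antibody at 10 mg/kg, and its libraries are titled as blanks. The anti-PDL1 group (3 tumours) received an antibody to PDL1, the ligand of the T cell checkpoint receptor PD-1, at 10 mg/kg. The BTZ+anti-PDL1 group (3 tumours) received that antibody together with 0.5 mg/kg of a compound that the labels call BTZ. A group given BTZ with no antibody was not analysed here, so in this group BTZ cannot be told apart from its combination with the antibody. The labels do not tie each library to its own mouse, and if tumours shared a host the p-values measure only the spread between these samples.

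Ly6 proteins are small, cysteine-rich proteins with a three-finger fold, and most are held on the outer face of the cell membrane by a glycolipid (GPI) anchor. Many mouse Ly6 genes are inducible by interferons, and several are used as surface markers of blood cells. The antigen Ly-6C, encoded by Ly6c1 and Ly6c2, marks inflammatory monocytes and subsets of T and NK cells, and it is also found on endothelium. Only RNA was measured here, so the amount of protein on any cell is not known.

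The libraries held 18.52 to 21.51 M (mega) counts each. The label lung adenocarcinoma was checked against epithelial genes: the keratin genes Krt18 (56.6 to 113 CPM, counts scaled to library size) and Krt8 (3.64 to 26.6 CPM) were present in all 9 tumours, as were Napsa (4.16 to 8.96 CPM) and Cdh1 (1.44 to 9.3 CPM). Epcam reached at most 0.247 CPM, and Nkx2-1, Sftpc and Sftpb had no count in any tumour. Some libraries stood apart before any comparison. The summed level of 10 skeletal muscle genes ran from 5.31 to 2640 CPM and was highest in isotype replicate 3 (2640 CPM), anti-PDL1 replicate 1 (977 CPM) and BTZ+anti-PDL1 replicate 1 (743 CPM). Isotype replicate 2 had the lowest T cell score, the mean of 14 T cell genes in log2 CPM centred on the 9 tumours, at -2.07 against -0.22 to 0.64 in the others. That tumour also had the lowest value of the 9 for Ly6a, Ly6c2, Ly6e and Ly6i.

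The 5 genes lie together on chromosome 15 (build mm10). In order they are Ly6e (ENSMUSG00000022587, 74955051 to 74959905, plus strand), Ly6i (ENSMUSG00000022586, 74979534 to 74983430, minus strand), Ly6a (ENSMUSG00000075602, 74994877 to 74998031, minus strand), Ly6c1 (ENSMUSG00000079018, 75044018 to 75048830, minus strand) and Ly6c2 (ENSMUSG00000022584, 75108158 to 75111970, minus strand). The span from Ly6e to Ly6c2 covers 156.9 kb, and 11 genes of the table start in it. The other 6 are predicted loci named Gm plus digits, of which 2 had no count and none passed the filter. No other gene of the table overlaps any of the 5.

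Ly6c1 and Ly6c2 are near-identical copies, and how their reads were divided bears on the values of both. Their coding sequences are 393 bases each without the stop codon, and they differ at 9 bases (97.7% identity, GENCODE M21 transcripts). The first 120 coding bases hold 6 of the 9 differences, which are set in capitals in both sequences so that the few bases telling these copies apart can be seen.
Ly6c1: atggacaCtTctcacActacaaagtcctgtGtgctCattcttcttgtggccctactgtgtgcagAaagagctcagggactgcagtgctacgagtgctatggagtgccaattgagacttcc
Ly6c2: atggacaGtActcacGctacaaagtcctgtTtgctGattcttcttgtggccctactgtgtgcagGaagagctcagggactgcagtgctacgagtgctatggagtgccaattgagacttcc
Ly6a and Ly6i share 86.3% of their coding bases, Ly6a and Ly6c1 share 81.8%, and Ly6e stands apart at 50.1% to 53.5% against the other 4. Cut into runs of 50 bases, 36.7% of the Ly6c1 transcript and 33% of the Ly6c2 transcript were also found in another gene. The share was 8.05% for Ly6a, 4.97% for Ly6i and 0.0% for Ly6e. At 100 bases it fell to 15.3% for Ly6c1, 15.8% for Ly6c2 and 0.0% for the other 3. The read length and the counting rule for reads that match both copies are not given in the sources used here, so the split between Ly6c1 and Ly6c2 is uncertain and its part in the results was not tested. The values of Ly6e rest on sequence of its own.

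The promoters of the copies differ more than their coding parts. RefSeq promoter sequences (GRCm38.p6) were matched for 2 of the 5 genes, Ly6c1 and Ly6c2. The 250 bases before the start site nearest the deposited gene start are printed on the minus strand, for Ly6c1 chr15:75048838-75049087 and for Ly6c2 chr15:75111972-75112221. Capitals mark GAGGAAGT, letters of the kind bound by the myeloid and B cell factor PU.1.
Ly6c1: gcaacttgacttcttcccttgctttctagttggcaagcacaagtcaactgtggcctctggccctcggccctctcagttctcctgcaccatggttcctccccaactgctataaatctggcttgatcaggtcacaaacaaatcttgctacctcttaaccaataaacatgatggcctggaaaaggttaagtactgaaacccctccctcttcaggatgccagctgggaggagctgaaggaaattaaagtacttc
Ly6c2: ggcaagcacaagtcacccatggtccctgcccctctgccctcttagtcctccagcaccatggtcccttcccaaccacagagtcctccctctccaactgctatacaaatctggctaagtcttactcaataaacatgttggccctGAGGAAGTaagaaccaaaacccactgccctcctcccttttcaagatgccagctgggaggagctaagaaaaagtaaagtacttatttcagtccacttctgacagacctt
In the 300-base windows that also take in the 50 bases from the start, the sequences aligned over 282 columns with 73.8% identity. The Ly6c2 window held GAGGAAGT at 108 bases before the start base and again at 26 bases after it, and the Ly6c1 window held none. A second annotated window of Ly6c1, which lies further into the gene, held 1 match, so the difference depends on the start site taken. These letters were chosen after the windows had been read, and they occur on either strand in 3.2% of 32851 mouse promoter windows of the same length. The interferon response element ISRE, searched as GAAA, any 2 bases and GAAA (3.44% of windows), the interferon gamma type motif TTCNNNGAA (8.3%) and the C/EBP type motif TTGCNNAA (10.8%), all on both strands, were not found in any of the 4 windows of Ly6c1 and Ly6c2.

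Per length, the order of the 5 genes was the same in 9 of 9 tumours. In FPKM, a count divided by gene length and library total, Ly6e was the most abundant at 24.7 to 37.6 with a median of 29.4. Ly6a followed at 6.38 to 18.4 FPKM (median 9.25) and Ly6c1 at 3.23 to 8.64 FPKM (median 6.21). Ly6c2 reached 0.514 to 2.75 FPKM (median 1.35) and Ly6i 0.23 to 1.07 FPKM (median 0.674). The ranges of Ly6a and Ly6c1 overlap over the 9 tumours, as do those of Ly6c2 and Ly6i, whereas Ly6e lay above the rest and Ly6c1 above Ly6c2 with no overlap. The scarce genes varied most. The highest tumour exceeded the lowest 5.1-fold in CPM for Ly6c2 and 4.47-fold for Ly6i, against 2.78-fold for Ly6a, 2.7-fold for Ly6c1 and 1.46-fold for Ly6e. Both had few counts, 8 to 34 per tumour for Ly6i and 47 to 237 for Ly6c2.

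**Figure D1:**
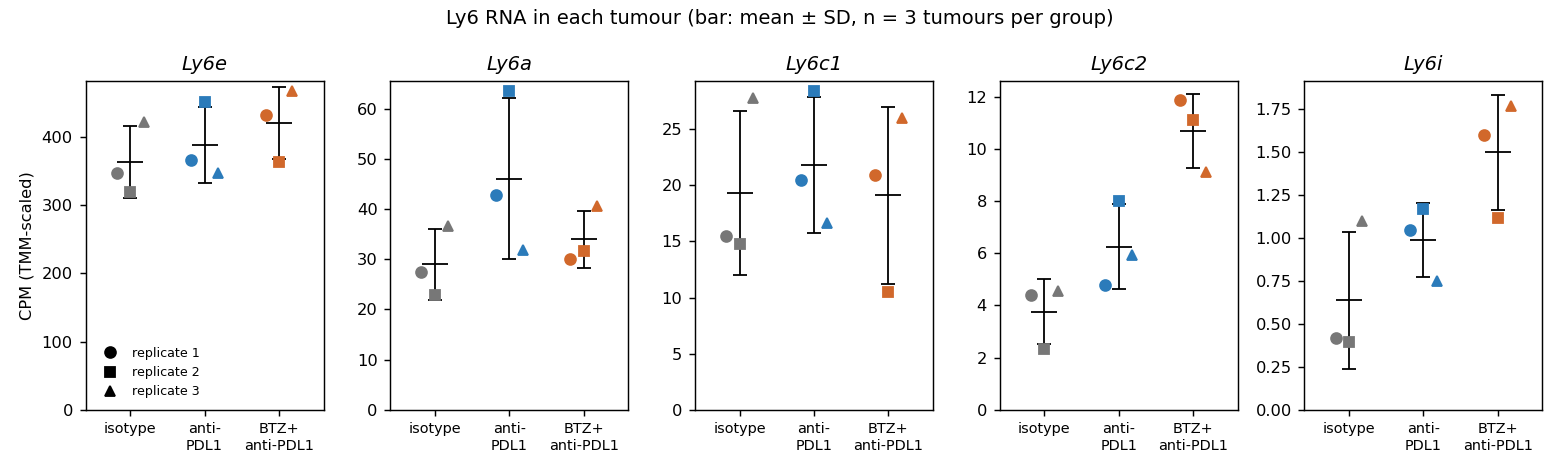
CPM (counts scaled to library size with TMM) of each gene in each of the 9 tumours, 1 panel per gene with an axis from 0; horizontal bars are group means and error bars 1 SD (n = 3 tumours). Ly6c2 climbs from 3.76 to 6.26 to 10.7 CPM with no overlap between the groups, whereas the groups of Ly6e, Ly6a and Ly6c1 overlap. The narrowest gap of Ly6c2, between isotype replicate 3 and anti-PDL1 replicate 1, is within counting error.

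Ly6c2, a monocyte and lymphocyte form of Ly-6C, was lowest in the isotype tumours and highest in the BTZ+anti-PDL1 tumours. The isotype tumours had 4.41, 2.33 and 4.55 CPM. The anti-PDL1 tumours had 4.80, 8.02 and 5.95 CPM, and the BTZ+anti-PDL1 tumours 11.9, 11.1 and 9.11 CPM. The 3 sets of values follow each other without overlap, and the gap between isotype replicate 3 and anti-PDL1 replicate 1 is the narrowest. These tumours had 87 and 96 counts, a difference within counting error, so the first 2 groups are barely separate. Group means were 3.76 ± 1.24, 6.26 ± 1.63 and 10.7 ± 1.42 CPM (SD, n = 3 each). The fitted log2 fold change was 0.73 ± 0.279 (SE) for anti-PDL1 against isotype, 0.77 ± 0.273 for BTZ+anti-PDL1 against anti-PDL1 and 1.51 ± 0.28, or 2.84-fold, for BTZ+anti-PDL1 against isotype. These comparisons share groups of tumours. Group means rose in this order for 18.5% of the 14506 genes tested, and for 0.179% of them (26 genes) the values also did so without overlap between neighbouring groups. The gene was chosen for this pattern, so nothing is read from those shares.

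The climb of Ly6c2 was smaller at its first step without isotype replicate 2. The log2 fold change for anti-PDL1 against isotype was then 0.49, and that for BTZ+anti-PDL1 against isotype was 1.26. Without the 3 muscle-rich tumours the values were 1.05 for anti-PDL1 against isotype, 0.53 for BTZ+anti-PDL1 against anti-PDL1 and 1.59 for BTZ+anti-PDL1 against isotype. Both settings kept the direction of each step. Leaving out the muscle-rich tumours does not make the groups alike in muscle RNA. The summed muscle level of the tumours kept was 5.93 and 7.47 CPM for isotype and 102 and 194 CPM for anti-PDL1. For BTZ+anti-PDL1 it was 18.1 and 5.31 CPM.

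Ly6c1, the copy of Ly-6C known from endothelium, did not follow Ly6c2. It had 15.5, 14.8 and 27.8 CPM in the isotype tumours, 20.5, 28.4 and 16.6 CPM in the anti-PDL1 group, and 20.9, 10.5 and 26 CPM in the BTZ+anti-PDL1 tumours. Every group spans both low and high tumours, and BTZ+anti-PDL1 replicate 2 is the lowest of the 9. Group means were 19.3 ± 7.29, 21.8 ± 6.04 and 19.1 ± 7.87 CPM (SD, n = 3 each). By edgeR's quasi-likelihood test with Benjamini-Hochberg adjustment over all genes, the log2 fold changes of Ly6c1 were 0.17 ± 0.378 (SE, adjusted p = 0.948) for anti-PDL1 against isotype, -0.19 ± 0.378 (adjusted p = 0.969) for BTZ+anti-PDL1 against anti-PDL1 and -0.02 ± 0.379 (adjusted p = 0.993) for BTZ+anti-PDL1 against isotype. These differences are within the spread between tumours, and their sign turned when single tumours were left out. Without anti-PDL1 replicate 2 the first was -0.06 and the second 0.05. Without BTZ+anti-PDL1 replicate 2 the second was 0.10 and the third 0.28, and without isotype replicate 3 the third was 0.34. Without isotype replicate 2 the first was 0.02 and the third -0.17, and without the muscle-rich tumours they were 0.57 and 0.27.

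The make-up of the pair differed between tumours. In the isotype tumours Ly6c2 was 17.7%, 10.6% and 11% of the summed FPKM of Ly6c1 and Ly6c2. It was 15.1%, 17.6% and 21.3% in the anti-PDL1 tumours and 30%, 44.4% and 20.9% in the BTZ+anti-PDL1 tumours. Neighbouring groups overlap on this measure, because isotype replicate 1 lies above anti-PDL1 replicates 1 and 2, and BTZ+anti-PDL1 replicate 3 lies just below anti-PDL1 replicate 3. The highest share, in BTZ+anti-PDL1 replicate 2, goes with the lowest Ly6c1 value of the 9 tumours (3.23 FPKM). The share includes Ly6c2 and so has no test.

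**Figure D2:**
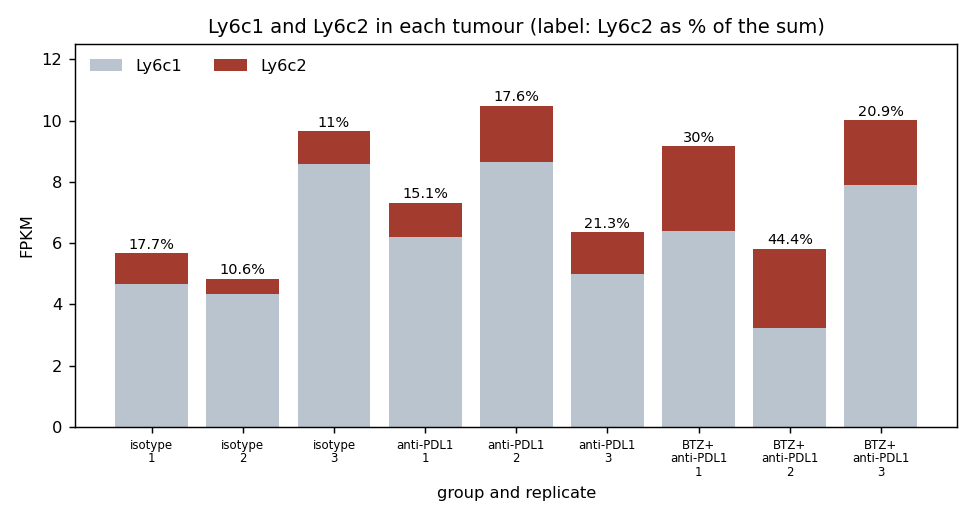
FPKM of Ly6c1 (grey) and Ly6c2 (red) stacked for each of the 9 tumours, with Ly6c2 as a percentage of the sum above each bar. Ly6c2 takes 10.6% to 17.7% in the isotype tumours and 20.9% to 44.4% in the BTZ+anti-PDL1 tumours, while the height of the bars does not follow the groups.

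Ly6i, an interferon-inducible relative seen in monocytes and macrophages, had its highest group mean in the BTZ+anti-PDL1 tumours. It had 0.42, 0.396 and 1.10 CPM in the isotype tumours, 1.05, 1.17 and 0.749 CPM in the anti-PDL1 group, and 1.60, 1.12 and 1.77 CPM in the BTZ+anti-PDL1 tumours. The lowest BTZ+anti-PDL1 tumour (1.12 CPM) barely exceeds the highest isotype tumour (1.10 CPM), and the anti-PDL1 tumours overlap with both groups. Group means were 0.638 ± 0.398, 0.989 ± 0.216 and 1.5 ± 0.336 CPM (SD, n = 3 each). The log2 fold change was 1.23 ± 0.441 (SE), or 2.34-fold, for BTZ+anti-PDL1 against isotype (edgeR adjusted p = 0.543). It was 0.63 ± 0.446 for anti-PDL1 against isotype (edgeR adjusted p = 0.825) and 0.60 ± 0.426 for BTZ+anti-PDL1 against anti-PDL1 (edgeR adjusted p = 0.886). None of these passed the adjusted threshold of 0.05. The value for BTZ+anti-PDL1 against isotype was 0.98 without isotype replicate 2, 1.86 without isotype replicate 3 and 1.81 without the 3 muscle-rich tumours. For anti-PDL1 against isotype it was 0.38 without isotype replicate 2, 1.26 without isotype replicate 3 and 1.22 without the muscle-rich tumours. With 8 to 34 counts per tumour, counting error is large beside these values.

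Ly6a, or stem cell antigen 1, marks blood stem cells, endothelium and activated lymphocytes, and its highest value lay in the anti-PDL1 group. It had 27.5, 22.9 and 36.7 CPM in the isotype tumours, 42.8, 63.5 and 31.9 CPM in the anti-PDL1 group, and 30, 31.6 and 40.6 CPM in the BTZ+anti-PDL1 tumours. Anti-PDL1 replicate 2 stands above all others, and anti-PDL1 replicate 3 lies within the range of the other groups. Group means were 29 ± 7.07, 46.1 ± 16.1 and 34 ± 5.72 CPM (SD, n = 3 each). The log2 fold change was 0.67 ± 0.269 (SE) for anti-PDL1 against isotype (edgeR adjusted p = 0.763). It was -0.44 ± 0.268 for BTZ+anti-PDL1 against anti-PDL1 (edgeR adjusted p = 0.886) and 0.23 ± 0.269 for BTZ+anti-PDL1 against isotype (edgeR adjusted p = 0.826). Without anti-PDL1 replicate 2 the first value was 0.37 and the second -0.13. The first was 0.53 and the third 0.09 without isotype replicate 2, and without the muscle-rich tumours they were 0.92 and 0.52. Ly6a thus did not share the order of groups seen for Ly6c2, and none of its differences passed the test.

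Ly6e, a broadly expressed and interferon-inducible member, was the most abundant and varied least. It had 347, 320 and 422 CPM in the isotype tumours, 366, 451 and 348 CPM in the anti-PDL1 group, and 432, 364 and 468 CPM in the BTZ+anti-PDL1 tumours. The groups overlap throughout, although the means climb from 363 ± 52.8 to 388 ± 55.4 to 421 ± 53.0 CPM (SD, n = 3 each). The log2 fold changes were 0.10 ± 0.139 (SE, edgeR adjusted p = 0.905), 0.12 ± 0.139 (adjusted p = 0.938) and 0.21 ± 0.139 (adjusted p = 0.684) in the order used above. Each is within the spread between tumours, and the first turned to -0.02 without anti-PDL1 replicate 2. With isotype replicate 2 left out, the first was 0.02 and the third 0.14, and without the muscle-rich tumours they were 0.26 and 0.32. With 6475 to 8992 counts per tumour, counting error is a small part of that spread.

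**Figure D3:**
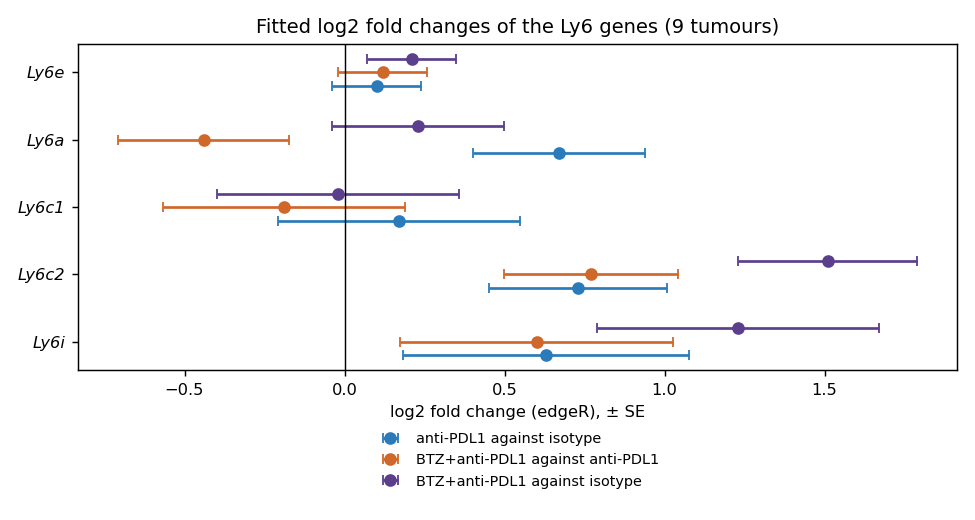
Log2 fold change (edgeR, points) with its SE (bars) of each gene in the 3 comparisons, which share groups of tumours; the vertical line marks no difference. Ly6c2 and Ly6i have positive values in all 3 comparisons, Ly6a has 0.67 for anti-PDL1 against isotype and -0.44 for BTZ+anti-PDL1 against anti-PDL1, and Ly6c1 and Ly6e lie within 0.21 of 0.

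Among the 4 genes other than Ly6c2, edgeR called 0 in each comparison at an adjusted p under 0.05. Over all genes it called 0.0138% for anti-PDL1 against isotype, 0.0138% for BTZ+anti-PDL1 against anti-PDL1 and 0.00689% for BTZ+anti-PDL1 against isotype. At an unadjusted edgeR p under 0.05, 1 of the 4 (Ly6a) was higher in the first comparison, where 3.01% of all genes were, 0 in the second (3.15%), and 1 (Ly6i) in the third (4.42%). DESeq2 also called 0 of the 4 in each comparison, and over all genes it called 0.0993%, 0.474% and 0.672%. For Ly6i it gave no adjusted p in the second comparison. Values of 4, 2 and 3 of the 4 genes were higher, against 49.0%, 50.8% and 49.7% of all genes. The median log2 fold changes of the 4 were 0.40, -0.04 and 0.22, and over all genes they lay between -0.00342 and 0.00295. Groups did not overlap for 0, 0 and 1 of the 4, where 6.08%, 7.33% and 6.96% of all genes were higher without overlap. Since the genes were gathered around Ly6c2 in these same comparisons, nothing is read from these counts.

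Across the 9 tumours, the genes other than Ly6c2 varied together to different degrees. All 6 pairs among the 4 were tested on log2 CPM with a two-sided exact permutation test, adjusted over the 6. The 9 tumours were permuted without regard to group, so differences between groups enter these p-values. Ly6e and Ly6i had the closest relation (Pearson r = 0.85, exact p = 0.002, adjusted p = 0.012, Spearman rho = 0.93, exact p = 0.00075). For this pair r was 0.84 without the 2 tumours farthest from the median of Ly6e. In each pair the 2 tumours left out were the farthest for the gene named first, so extremes of the other gene can remain. Ly6c1 and Ly6e followed (r = 0.78, exact p = 0.0152, adjusted p = 0.0456, rho = 0.82, exact p = 0.0108), with r = 0.89 without 2 tumours. Ly6a did not pass after adjustment with Ly6c1 (r = 0.68, exact p = 0.0418, adjusted p = 0.0627, rho = 0.72, exact p = 0.0369) or with Ly6e (r = 0.68, exact p = 0.035, adjusted p = 0.0627, rho = 0.72, exact p = 0.0369). Without the 2 farthest tumours, r was 0.57 and 0.41 for these pairs. For Ly6a with Ly6i r was 0.58 (exact p = 0.103, adjusted p = 0.124, rho = 0.52, exact p = 0.162, and r = 0.53 without 2 tumours). For Ly6c1 with Ly6i r was 0.50 (exact p = 0.168, adjusted p = 0.168, rho = 0.58, exact p = 0.108, and r = 0.84 without 2 tumours). Within groups, with each group's mean removed, r was 0.87 for Ly6e with Ly6i and 0.95 for Ly6c1 with Ly6e. The values of a tumour share its library and its scaling.

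Ly6c2 is set beside these relations as a description. Its r was 0.81 with Ly6i, 0.64 with Ly6e, 0.39 with Ly6a and 0.09 with Ly6c1, its near-identical copy. With group means removed the values were 0.39 with Ly6i, 0.52 with Ly6e, 0.51 with Ly6a and 0.30 with Ly6c1. The value with Ly6i was thus lower within groups than over all 9 tumours.

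The genes most like each member were ranked by Pearson r in log2 CPM over the 9 tumours among 12174 genes with a mean of at least 1 CPM. For Ly6c2 the leading gene was Klre1, an inhibitory receptor of NK cells (r = 0.958), at 0.705 ± 0.175 CPM in the isotype group, 1.2 ± 0.365 CPM in the anti-PDL1 group and 2.29 ± 0.606 CPM in the BTZ+anti-PDL1 group (SD, n = 3 each). It was followed by Sp140, a nuclear body protein of immune cells (r = 0.939), and by Ifi204, an interferon-inducible protein of the DNA-sensing p200 family (r = 0.938). Next were AW146154 (r = 0.929), the endosomal RNA sensor gene Tlr7 (r = 0.929), the zinc finger gene Zfat (r = 0.927), Tbc1d10c (r = 0.924) and Tnfsf13, a cytokine of the TNF family (r = 0.92). Group means of Tlr7 were 5.48, 8.64 and 15.9 CPM, without overlap between neighbouring groups. These genes were ranked on a pattern that follows the groups, so their order over the groups is not a result.

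The genes most like the other members were different ones. For Ly6i they were Cyfip2 (r = 0.979), the monocyte gene Ms4a4c (r = 0.973), the interferon-inducible Ifi205 (r = 0.971) and Parp11 (r = 0.971). For Ly6e they were the cytokine receptor gene Il17rc (r = 0.937), Tspyl3 (r = 0.917), Pdcd1lg2, which encodes the PD-1 ligand PDL2 (r = 0.911), and Birc3, an inhibitor of apoptosis (r = 0.911). For Ly6a they were Icosl, the ligand of the T cell receptor ICOS (r = 0.926), Elmo1 (r = 0.901), Kbtbd7 (r = 0.899) and the T cell transcription factor gene Nfatc2 (r = 0.898). For Ly6c1 they were Sdsl (r = 0.94), the phosphate transporter gene Slc20a1 (r = 0.931), the RNA-binding Ythdf2 (r = 0.925) and the macrophage-lineage receptor gene Fcrls (r = 0.911). No gene stood in the leading set of more than 1 member. With group means removed, r was 0.786 for Ly6c2 with Klre1 and 0.968 for Ly6i with Cyfip2.

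Cell types that carry Ly6 proteins were followed through marker lists without the 5 genes, and edgeR called 0 of their genes in each comparison. Over all genes, 49.0% to 50.8% had higher values in a comparison. At an unadjusted edgeR p under 0.05, 3.01%, 3.15% and 4.42% of all genes were higher over the 3 comparisons. At that p 3.34%, 2.67% and 4.18% were lower, and DESeq2 called 0.0993%, 0.474% and 0.672%. Counts of list genes are to be read beside these shares. In bulk tumour RNA, fewer cells of a type and less RNA per cell cannot be told apart. The 14 monocyte genes, among them the chemokine receptor gene Ccr2 and the growth factor receptor gene Csf1r, were higher for 12 of 14 in the anti-PDL1 against the isotype tumours (median log2 fold change 0.37). They were higher for 8 of 14 in the BTZ+anti-PDL1 against the anti-PDL1 tumours (median 0.06) and for 9 of 14 against the isotype tumours (median 0.32). Ly6c2 had 0.73, 0.77 and 1.51 over these comparisons. The monocyte medians against isotype without isotype replicate 2 were 0.20 for anti-PDL1 and 0.10 for BTZ+anti-PDL1, and without the muscle-rich tumours both were 0.56. Ccr2 itself was at 49.9 ± 19.1, 62.8 ± 9.25 and 70.7 ± 14.8 CPM, and Csf1r at 159 ± 51.1, 221 ± 13.7 and 195 ± 11.3 CPM (SD, n = 3 each). The summed monocyte level ranged from 1020 to 1370 CPM for isotype, 1420 to 1490 CPM for anti-PDL1 and 1200 to 1450 CPM for BTZ+anti-PDL1. The 10 macrophage genes were higher for 9, 3 and 8 of 10 over the 3 comparisons (medians 0.35, -0.10 and 0.29). Against isotype these medians were 0.18 and 0.06 without isotype replicate 2, and 0.61 and 0.39 without the muscle-rich tumours. At an unadjusted edgeR p under 0.05, 1 monocyte gene was higher in each comparison, 2 were lower in the first and 2 in the second, and DESeq2 called 0, 1 and 1. Of the macrophage genes, 2, 0 and 1 were higher at that p and 1 was lower in the second comparison, and DESeq2 called 1, 0 and 0. The part of these cells in the level of Ly6c2 was not tested.

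Lymphoid and interferon lists had other profiles. All 10 NK and cytotoxic genes had higher values with BTZ+anti-PDL1, both against anti-PDL1 (median 0.33) and against isotype (median 0.81), and 8 of 10 were higher in anti-PDL1 against isotype (median 0.44). Summed, they gave 26.7, 25.5 and 32 CPM for isotype, 30.1, 36.8 and 29.9 CPM for anti-PDL1, and 49.2, 40.0 and 46.8 CPM for BTZ+anti-PDL1, whose tumours all lie above the others. The granule protease gene Gzmb was at 12 ± 2.48, 11.3 ± 2.07 and 19.2 ± 2.03 CPM and the NK receptor gene Ncr1 at 1.02 ± 0.292, 1.26 ± 0.179 and 1.6 ± 0.595 CPM (SD, n = 3 each). Without adjustment, edgeR put 1, 1 and 5 NK and cytotoxic genes higher at a p under 0.05, and DESeq2 called 0, 1 and 0, the 1 being Gzmb. Of all genes, edgeR put 3.01%, 3.15% and 4.42% higher at that p, and DESeq2 called 0.0993%, 0.474% and 0.672%. The 14 T cell genes were higher for 14, 10 and 14 of 14 over the 3 comparisons (medians 0.66, 0.09 and 0.74), with 1, 0 and 2 at an unadjusted edgeR p under 0.05 and 0 called by DESeq2. Without isotype replicate 2 the T cell medians were 0.20 for anti-PDL1 against isotype and 0.29 for BTZ+anti-PDL1 against isotype, and without the muscle-rich tumours they were 1.15 and 1.17. The T cell genes Cd3e and Cd8a were at 1.3 ± 1.06 and 3.55 ± 2.75 CPM in the isotype tumours and at 2.08 ± 0.931 and 5.94 ± 0.412 CPM in the BTZ+anti-PDL1 tumours (SD, n = 3 each). Of the 8 dendritic cell genes, Bst2 is also in the type I interferon list used below. The 8 genes were higher for 7, 5 and 7 of 8 (medians 0.29, 0.32 and 0.64). Of these, 1, 1 and 6 were higher and 1 was lower in the second comparison at an unadjusted edgeR p under 0.05, and DESeq2 called 0, 1 and 1. Among them were Siglech at 0.415 ± 0.321, 1.29 ± 0.167 and 1.08 ± 0.384 CPM and Xcr1 at 0.382 ± 0.266, 0.629 ± 0.342 and 1.09 ± 0.107 CPM (SD, n = 3 each).

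Interferon-inducible genes are of interest because several Ly6 genes respond to interferons. The 20 genes of a type I interferon list were higher for 15 of 20 in anti-PDL1 against isotype (median 0.16, or 0.04 with 13 of 20 higher without isotype replicate 2, and 0.24 without the muscle-rich tumours), and for 20 of 20 in BTZ+anti-PDL1 against anti-PDL1 (median 0.71) and against isotype (median 0.83). The antiviral genes Isg15 and Mx1 were at 11.4 ± 3.15 and 5.75 ± 1.97 CPM for isotype, 10.2 ± 0.857 and 6.78 ± 1.36 CPM for anti-PDL1, and 23.4 ± 4.34 and 17.2 ± 2.85 CPM for BTZ+anti-PDL1 (SD, n = 3 each). At an unadjusted edgeR p under 0.05, 0, 16 and 17 of the 20 were higher over the 3 comparisons, and DESeq2 called 0, 9 and 12. Of all genes, 3.01%, 3.15% and 4.42% were higher at that p, and DESeq2 called 0.0993%, 0.474% and 0.672%. For Isg15 and Mx1, BTZ+anti-PDL1 against isotype had a DESeq2 adjusted p of 0.00192 and 4.94e-06 and an edgeR adjusted p of 0.265 and 0.154. The 17 tested genes of an interferon gamma list were higher for 16, 15 and 16 of 17 (medians 0.47, 0.25 and 0.85), among them the chemokine gene Cxcl9 at 36.7 ± 32.1, 69.3 ± 11.3 and 81.9 ± 23.8 CPM and the class II regulator gene Ciita at 6.27 ± 3.73, 10.9 ± 1.65 and 12.4 ± 1.77 CPM (SD, n = 3 each). Of the 17, 0, 1 and 6 were higher at an unadjusted edgeR p under 0.05, and DESeq2 called 0, 0 and 1. Without isotype replicate 2 the interferon gamma medians were 0.21 for anti-PDL1 against isotype and 0.48 for BTZ+anti-PDL1 against isotype, and without the muscle-rich tumours they were 0.88 and 1.27. Over the step from anti-PDL1 to BTZ+anti-PDL1, where the type I list had its median of 0.71, the Ly6 genes had 0.77 (Ly6c2), 0.60 (Ly6i), 0.12 (Ly6e), -0.19 (Ly6c1) and -0.44 (Ly6a). Whether interferons acted on the Ly6 genes was not tested.

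Endothelium carries Ly6c1 and Ly6a. The 12 endothelial genes had lower values for 12, 11 and 12 of 12 over the 3 comparisons (medians -0.25, -0.32 and -0.55). Without adjustment, 0, 2 and 9 of them were lower at an edgeR p under 0.05 (3.34%, 2.67% and 4.18% of all genes). DESeq2 called 0 of them. Summed, they gave 273, 419 and 357 CPM for isotype, 275, 288 and 348 CPM for anti-PDL1, and 235, 233 and 270 CPM for BTZ+anti-PDL1. All BTZ+anti-PDL1 tumours lie below all others, the nearest being isotype replicate 1. The adhesion genes Pecam1 and Cdh5 were at 65.2 ± 14 and 92.2 ± 22.8 CPM in the isotype tumours and at 44.7 ± 4.39 and 62.6 ± 7.39 CPM in the BTZ+anti-PDL1 tumours (SD, n = 3 each). Without isotype replicate 2, which had the highest summed level, the medians were -0.09 for anti-PDL1 against isotype, with 4 of 12 genes higher, and -0.34 for BTZ+anti-PDL1 against isotype. Without the muscle-rich tumours they were -0.11 and -0.52. The part of endothelium in the levels of Ly6c1 and Ly6a was not tested.

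**Figure D4:**
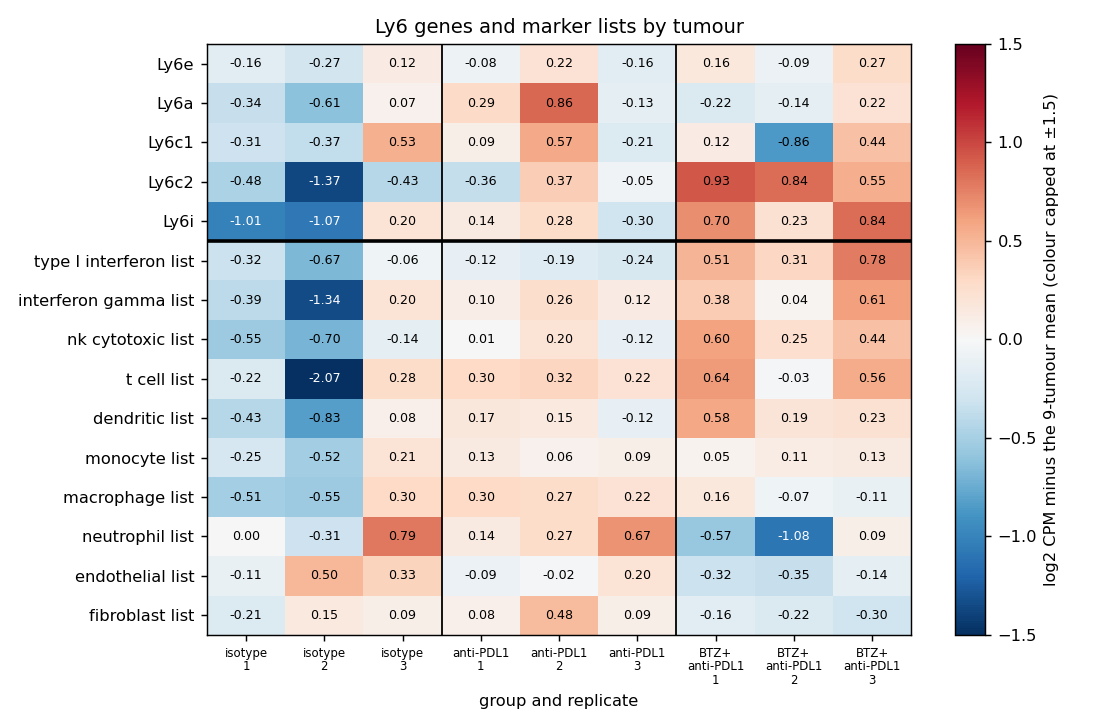
Log2 CPM minus its mean over the 9 tumours, for the 5 Ly6 genes (above the line) and as the mean over the tested genes of 10 marker lists (below it), 1 column per tumour; colour is capped at 1.5. The BTZ+anti-PDL1 columns hold the 3 highest values of Ly6c2 (0.93, 0.84 and 0.55), and isotype replicate 2 holds the lowest T cell value (-2.07).

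Neutrophils, fibroblasts and skin were examined as other sources of RNA in a subcutaneous tumour. The 6 tested neutrophil genes were lower for 6 of 6 in BTZ+anti-PDL1 against anti-PDL1 (median -0.91) and for 5 of 6 against isotype (median -0.74). Against isotype the median was -0.21 with 3 of 6 higher without the muscle-rich tumours, and -1.02 without isotype replicate 2. Over the 3 comparisons, 0, 3 and 3 of the 6 were lower at an unadjusted edgeR p under 0.05. Of all genes, 3.34%, 2.67% and 4.18% were lower at that p. DESeq2 called 0, 0 and 1 of the 6 neutrophil genes (0.0993%, 0.474% and 0.672% of all genes), the 1 being S100a9. Among them were S100a9 at 33.2 ± 13, 29.2 ± 6.22 and 14.1 ± 5.92 CPM and S100a8 at 9.63 ± 4.09, 9.13 ± 1.62 and 5.03 ± 1.11 CPM (SD, n = 3 each). Ly6g, the Ly6 gene that defines mouse neutrophils, had 0 to 7 counts per tumour and did not pass the filter. It had no count in the 3 BTZ+anti-PDL1 tumours, and with so few counts a difference between groups was not tested. The 10 fibroblast genes were higher for 7, 3 and 4 of 10 (medians 0.07, -0.26 and -0.12), with Pdgfra at 172 ± 16, 179 ± 22.2 and 181 ± 14.6 CPM and Col1a1 at 750 ± 587, 874 ± 454 and 336 ± 141 CPM (SD, n = 3 each). Of the keratinocyte genes, 2 of 9 were tested, with medians of -0.21, -0.28 and -0.49. Krt14 and Krt5 reached at most 5.38 and 7.79 CPM, both in isotype replicate 3, the tumour with the highest muscle level. Of the B and plasma cell genes, 2 of 6 were tested (medians 0.55, -0.35 and 0.20), and Ms4a1 had at most 5 counts in a tumour. The 10 muscle genes, led by Acta1 and Ckm, had medians of -1.18, -0.54 and -1.56. Without isotype replicate 2 the keratinocyte median for anti-PDL1 against isotype was 0.01, and without the 3 muscle-rich tumours the muscle medians were 5.93, -3.44 and 1.32. The epithelial genes had medians of -0.44, 0.33 and 0.08 over 6 tested genes, and the third was -0.04 without the muscle-rich tumours. In these 5 lists 1 fibroblast and 1 epithelial gene were lower at an unadjusted edgeR p under 0.05 in BTZ+anti-PDL1 against anti-PDL1. Against isotype 2 fibroblast genes and 1 epithelial gene were lower and 1 epithelial gene higher, and DESeq2 called 0.

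Most other Ly6/uPAR genes were too low to test in these tumours. Of 38 listed relatives, 31 were matched in the table, 11 of those had no count in any tumour, and 6 passed the filter. Plaur, the receptor of urokinase, averaged 124 ± 16, 96.9 ± 16.4 and 97.7 ± 4.21 CPM in the isotype, anti-PDL1 and BTZ+anti-PDL1 tumours (SD, n = 3 each). The fitted log2 difference was -0.36 ± 0.128 (SE) for anti-PDL1 against isotype (edgeR adjusted p = 0.763) and -0.34 ± 0.128 for BTZ+anti-PDL1 against isotype (edgeR adjusted p = 0.543). Gpihbp1, which carries lipoprotein lipase across capillary endothelium, was at 12.6 ± 3.82, 10.9 ± 1.38 and 8.68 ± 1.46 CPM (SD, n = 3 each). Its value was -0.21 ± 0.229 (SE) for anti-PDL1 against isotype (edgeR adjusted p = 0.875) and -0.54 ± 0.23 for BTZ+anti-PDL1 against isotype (edgeR adjusted p = 0.569). The values of Plaur and Gpihbp1 were negative in both comparisons against isotype, as were those of Lynx1 (-0.05 and -0.28). Ly6g5b was positive in both, and Cd59a and Cd177 changed sign between them. None passed the adjusted threshold of 0.05, and Ly6c2 was chosen for its climb, so nothing is read from these signs.

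The 4 scarcer relatives showed no order over the groups beyond their spread. Lynx1, a modulator of nicotinic receptors, was at 2.99 ± 1.79, 2.9 ± 0.569 and 2.46 ± 0.521 CPM (SD, n = 3 each). Cd59a, an inhibitor of complement, was at 0.97 ± 0.733, 0.858 ± 0.294 and 1.09 ± 0.571 CPM, and the neutrophil gene Cd177 at 0.975 ± 0.391, 0.903 ± 0.309 and 1.25 ± 0.531 CPM (SD, n = 3 each). Ly6g5b was at 0.566 ± 0.159, 0.585 ± 0.199 and 0.695 ± 0.336 CPM (SD, n = 3 each). By edgeR 0 of the 6 relatives passed the adjusted threshold in any comparison. At an unadjusted edgeR p under 0.05, 1 of the 6 (Plaur) was lower in anti-PDL1 against isotype, where 3.34% of all genes were, 0 in BTZ+anti-PDL1 against anti-PDL1 (2.67%), and 2 (Plaur and Gpihbp1) in BTZ+anti-PDL1 against isotype (4.18%). DESeq2 called 0 of the 6. The medians of the 6 were -0.14, 0.13 and -0.05 over the 3 comparisons. All 3 changed sign without the muscle-rich tumours (0.21, -0.06 and 0.17), and the third was -0.24 without isotype replicate 2.

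**Figure D5:**
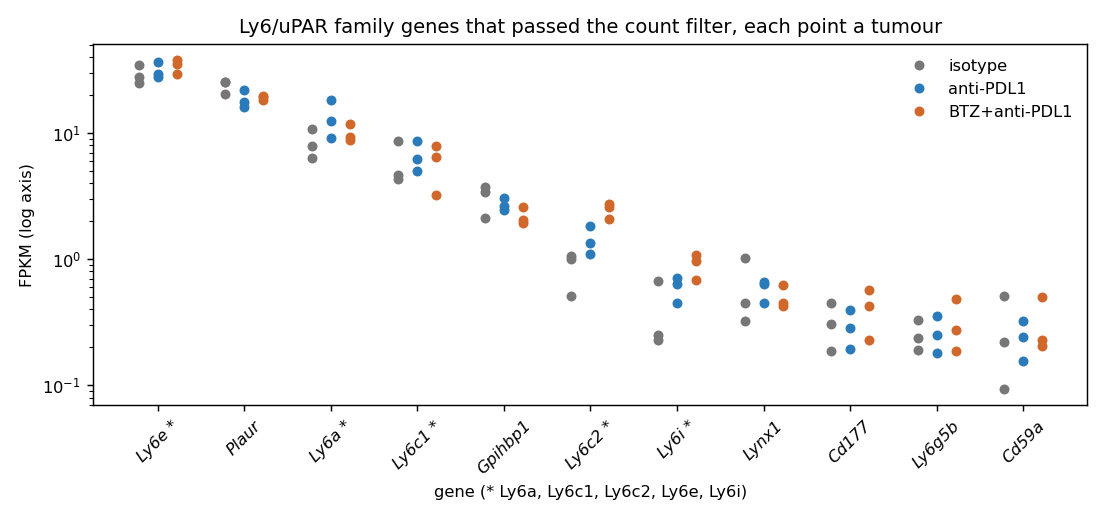
FPKM on a log axis of the 11 Ly6/uPAR family genes that passed the count filter, ordered by level, each point a tumour coloured by group; an asterisk marks Ly6a, Ly6c1, Ly6c2, Ly6e and Ly6i. Ly6e is the highest gene at 24.7 to 37.6 FPKM, followed by Plaur, and the groups of most genes overlap. Those of Ly6c2, which was chosen for its climb, are separate, with isotype and anti-PDL1 apart by no more than counting error.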

How the data were processed

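RNA of 9 subcutaneous LLC tumours was analysed as 3 groups of 3, with group, dose and replicate taken from the labels. The deposited table held columns that its headers call counts, and FPKM values made by the authors. The count columns were taken as whole-number read counts per gene that had not been normalised. Over 12343 genes with at least 20 counts, FPKM equalled the count times a constant per gene, divided by the column total (largest relative deviation 4.22e-05). Per the submitters' processing notes, HISAT2 2.0.4, StringTie 1.3.3b and build mm10 were used, in roles they do not state. Counter, annotation and strand setting are not given in the sources used here. BTZ+anti-PDL1 columns were matched to libraries by treatment label and number.

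Genes were filtered by filterByExpr (minimum count 10) and tested by the quasi-likelihood method of edgeR 4.0.16 (R 4.3.3). TMM scaling was used, and all 9 tumours entered a single model of 3 group means with 6 residual degrees of freedom. Calls needed an adjusted p (Benjamini-Hochberg, over all genes tested) under 0.05. The median SE of a log2 fold change was 0.138. DESeq2 1.42.0 and limma 3.58.1 on log2(FPKM + 1) and log2(FPKM + 0.1) were alternatives. Log2 CPM used a prior count of 2. The text names the 5 genes, all tested relatives, the 8 genes most like Ly6c2 and the 4 most like each other member (leaving out predicted loci), and the first 2 genes of each list, of which 1 is not reported here. Ly6g, and the genes Napsa, Cdh1, Epcam, Nkx2-1, Sftpc and Sftpb of the epithelial list, were named after their values were seen. Members and lists were chosen with earlier results of these data known.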

Additional observations from a re-analysis of the deposited data

How the results depend on the processing

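The 4 tested Ly6 genes gave 198 values under the alternatives, and 0 passed an adjusted p under 0.05 (range 0.122 to 1.0). Among the 198, Ly6i by DESeq2 in BTZ+anti-PDL1 against anti-PDL1 had no adjusted p. Ly6i has no value in the FPKM fits, since it did not reach FPKM 1 in 3 tumours. The sign turned for 7 of 249 values over all 5 genes. The 249 include the values of Ly6c2, which carry no test. They also include fits that left out a tumour outside the comparison, where the estimate hardly moves. The share is therefore not a measure of stability. Ly6c1 turned in anti-PDL1 against isotype (-0.06) and Ly6e in the same comparison (-0.02), both without anti-PDL1 replicate 2. In BTZ+anti-PDL1 against anti-PDL1, Ly6c1 turned to 0.05 without anti-PDL1 replicate 2 and to 0.10 without BTZ+anti-PDL1 replicate 2. In BTZ+anti-PDL1 against isotype, Ly6c1 turned to 0.34 without isotype replicate 3 and to 0.28 without BTZ+anti-PDL1 replicate 2. There it was also 0.27 when the 3 muscle-rich tumours were dropped. With each tumour left out in turn, Ly6c1 ran from -0.06 to 0.53, -0.47 to 0.10 and -0.29 to 0.34 in these comparisons, and Ly6e from -0.02 to 0.22 in the first. The value of Ly6c2 in BTZ+anti-PDL1 against isotype was 0.91 on the log2(FPKM + 1) scale, where the pseudocount lowers the change of scarce genes, and 1.26 to 1.67 with each tumour left out.

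The number of genes called was small and depended on the setting. For anti-PDL1 against isotype it was 2, and 15 by DESeq2, 0 without the muscle-rich tumours and 1 to 4 with each tumour left out. For BTZ+anti-PDL1 against anti-PDL1 it was 2, and 4 without a filter on low counts, 12 with only the groups compared, 62 by DESeq2, 0 without the muscle-rich tumours and 1 to 7 with each tumour left out. For BTZ+anti-PDL1 against isotype it was 1, and 6 without a filter, 0 with only the groups compared, 107 by DESeq2, 3 in both FPKM fits, 0 without the muscle-rich tumours and 0 to 20 with each tumour left out, the highest without isotype replicate 3. The cause was not tested. With the replicate number as a block, 1, 1 and 0 genes were called. Deviations of same-numbered tumours from their group means had correlations of -0.434 to 0.393 over 9 pairs. With 3 tumours per group, such correlations cannot exclude that the numbers pair the tumours. No Ly6 gene was called under the block.

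List medians without isotype replicate 2 or without the muscle-rich tumours were chosen after seeing the data. The low counts of Ly6i and the unknown split of reads between Ly6c1 and Ly6c2 limit the values of these genes.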
